A study of Mus musculus with 8 samples.

Results

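The 10 genes described here, Dazl, Ddx4, Mael, Tex19.1, Slc25a31, Tdrd12, Asz1, Stk31, Tex13b and Prdm1, act in germ cells or in the piRNA pathway. They were chosen with earlier results of these data known and were taken by gene symbol. In all, 14 probe sets were annotated to 1 of these symbols alone, 4 genes having 2 probe sets and 6 having 1. The array held 18193 genes with a probe set of their own. The piRNA pathway loads small RNAs onto PIWI proteins in cytoplasmic granules called nuage and silences transposons in the germ line, with Tudor-domain proteins such as Tdrd12 as scaffolds. Many germ cell genes have CpG-rich promoters that are methylated and silent in somatic cells. In embryonic stem cells a Polycomb complex, PRC1.6, which contains the DNA-binding proteins E2F6, MGA and MAX, holds many of them at a low level.

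RNA of mouse embryonic stem cells kept on feeder cells was hybridised to 8 Affymetrix arrays, 2 in each of 4 groups. J1 cells (background strain 129S4/SvJae) received a control short hairpin RNA (shRNA) or an shRNA against Rif1 by lipofection and were collected 48 h later. F1 cells (C57BL/6xC3H) carried a control shRNA or a stable Rif1 shRNA and were taken at passage 16. The control F1 arrays bear the control shRNA under transfection, but the cell line field of their labels names the stable knockdown line. The labels do not say whether the 2 arrays of a group came from separate cultures, so a p-value here covers the spread between these arrays alone, which may be technical. Nor do they say whether a line was 1 clone, and their treatment note speaks of virus or siRNA for all samples. Cell line, strain, duration and kind of knockdown change together between J1 and F1 and cannot be told apart.

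All 10 embryonic stem cell markers examined, among them Pou5f1, Nanog and Sox2, lay between percentiles 87.0 and 99.9 of their arrays in every group. In F1, 5 of the 10 were lower after knockdown, among them Fgf4 (log2 fold change -0.62, adjusted p = 0.00417) and Esrrb (-0.54, adjusted p = 0.000106), and 1 was higher, while 0 passed in J1 with limma (1 higher and 2 lower at an unadjusted p under 0.05). The 4 Rif1 probe sets kept 39.3% to 47.2% of the control level in J1 and 24.7% to 33.7% in F1. The array median of the deposited signal was 61.1 to 69.4, and precision is limited by the small number of arrays. In F1 the control and knockdown arrays differed in more than Rif1: the Y-linked gene Eif2s3y read 20.6 ± 1.03 in the controls against 936 ± 34.3 after knockdown (SD, n = 2), and Uty read 6.12 ± 2.02 against 143 ± 1.32 (SD, n = 2), values that were not tested. The Y-linked gene Kdm5d was dim in both (13.6 against 10.6), and Usp9y went the other way (89.8 against 36.7). In J1 controls Eif2s3y read 900 and Uty 175, above the array median, while Kdm5d (38.2) and Usp9y (46.4) read below it. These 2 probe sets were thus low even where Eif2s3y and Uty were not. Xist, an X-linked gene, read 112 in F1 controls and 198 after knockdown. The effect of the F1 knockdown and of the origin of the compared cells cannot be told apart. In J1 the ratio of 3' to 5' actin signal, a measure of RNA integrity, was 2.61 and 2.71 on the control arrays against 2.17 and 2.18 after Rif1 shRNA. It was 1.33 to 1.41 on the F1 arrays, so it moves with every comparison of F1 against J1 as well. Its part in the results was not tested.

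Markers of other cell types moved with the knockdown. For these and the stem cell markers above, the shares of all probe sets called higher and lower were 1.44% and 1.74% in J1. In F1 they were 8.26% and 6.78%. In F1, 11 of 13 feeder fibroblast markers tested were higher. The summed signal of the 13 ran from 11317 to 11427 in controls and from 18459 to 18707 in knockdown arrays. Most of these sums came from Fn1 (4740 against 5182, did not pass), Vim (4412 against 6564) and Acta2 (924 against 2949). In F1, 5 of 7 trophoblast markers were higher, with sums of 1268 to 1328 in controls and 9019 to 9867 in knockdown arrays. Most of these sums came from the keratin genes Krt8 (515 against 4427) and Krt18 (480 against 4330). Cdx2 (39.3 against 118) and Hand1 (34.3 against 124) were dimmer. Tfap2a and Plac1 did not pass, and Elf5 and Gata3 were too dim to be tested. Genes expressed in 2-cell embryos were higher for 7 of 7 in F1, with sums of 1293 to 1341 and 9923 to 11234, and for 5 of 7 in J1, with sums of 276 to 301 and 1437 to 1455. In J1, 2 of 13 fibroblast markers and 1 of 7 trophoblast markers were lower and none was higher. The fibroblast sums in J1 were 7412 to 7517 in controls and 6174 to 6615 in Rif1 shRNA arrays. The part of these cells in the results below was not tested. Markers of later germ cells (spermatids and oocytes, such as Prm1, Gdf9 and Zp3) passed in neither setting (0 of 5 tested with limma, and 0 at an unadjusted p under 0.05). Of the 10 on the array, 5 stayed under the 40th percentile in all 4 groups. In bulk RNA, more cells of a type and more RNA per cell cannot be told apart.

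Of the 10 genes, 4 were higher in Rif1 shRNA arrays in both settings: Dazl, Mael, Tex19.1 and Slc25a31. The 250 bases before their annotated starts are printed from RefSeq (GRCm38.p6) because these promoters belong to the genes that moved together. A match for each of the 10 symbols was found there. Capitals mark a GCGGGA motif on either strand (TCCCGC on the other), the type bound by E2F6, or a CACGTG motif (E-box), the type bound by MGA and MAX. The sequences read 5' to 3' on the gene's strand and run from chr17:50293621-50293870 (minus strand) for Dazl, chr1:166238745-166238994 (minus) for Mael, chr11:121145893-121146142 (plus) for Tex19.1 and chr3:40708621-40708870 (plus) for Slc25a31.
Dazl: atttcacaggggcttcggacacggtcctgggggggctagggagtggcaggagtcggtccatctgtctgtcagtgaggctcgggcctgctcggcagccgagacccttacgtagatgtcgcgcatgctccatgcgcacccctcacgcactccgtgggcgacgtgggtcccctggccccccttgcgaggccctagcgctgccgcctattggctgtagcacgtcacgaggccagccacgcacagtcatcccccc
Mael: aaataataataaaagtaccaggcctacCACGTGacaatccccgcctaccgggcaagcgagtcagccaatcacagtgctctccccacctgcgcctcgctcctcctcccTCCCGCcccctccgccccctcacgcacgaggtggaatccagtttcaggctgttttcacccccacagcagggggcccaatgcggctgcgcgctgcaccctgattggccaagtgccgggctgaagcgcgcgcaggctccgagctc
Tex19.1: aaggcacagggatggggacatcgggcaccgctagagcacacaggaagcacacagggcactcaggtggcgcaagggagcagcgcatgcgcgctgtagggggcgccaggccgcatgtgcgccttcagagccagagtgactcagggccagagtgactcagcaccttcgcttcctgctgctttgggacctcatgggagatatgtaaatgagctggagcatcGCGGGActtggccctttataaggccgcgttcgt
Slc25a31: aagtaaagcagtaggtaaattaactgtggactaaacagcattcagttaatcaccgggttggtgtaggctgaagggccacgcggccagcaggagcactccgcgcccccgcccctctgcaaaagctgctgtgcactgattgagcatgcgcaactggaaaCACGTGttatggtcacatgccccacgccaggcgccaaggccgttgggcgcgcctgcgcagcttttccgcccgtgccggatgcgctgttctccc

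The Mael window held an E-box 223 bases before the start and a reverse E2F6-type motif 143 bases before it. Tex19.1 held an E2F6-type motif 33 bases before the start, and Slc25a31 held an E-box 93 bases before it. Neither motif occurs in these letters for Dazl, which says nothing about factors bound there. Among 12 annotated starts of the 10 genes, 3 windows held the E2F6-type motif and 5 held the E-box (4 sites, since the 2 Stk31 windows overlap and share theirs). Of 32841 mouse promoter windows of the same length, 16.9% and 6.02% held them. Both motifs contain a CpG and these windows were not matched for CpG content, so the shares are a description. The Ddx4 window held 1 of each motif and 31 CpGs, the most among the 10 genes. The windows of Dazl, Mael, Tex19.1 and Slc25a31 held 20, 18, 15 and 18 CpGs against a median of 6 over all windows. The windows of the other genes held 21 and 26 (Stk31), 15 (Asz1 and Prdm1), 11 (Tex13b) and 6 and 5 CpGs (Tdrd12). Whether motifs or CpG counts go with the changes in expression was not tested. The motifs overlapped neither each other nor a second copy in these windows. A match is a description of the letters and not a bound site.

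**Figure D1:**
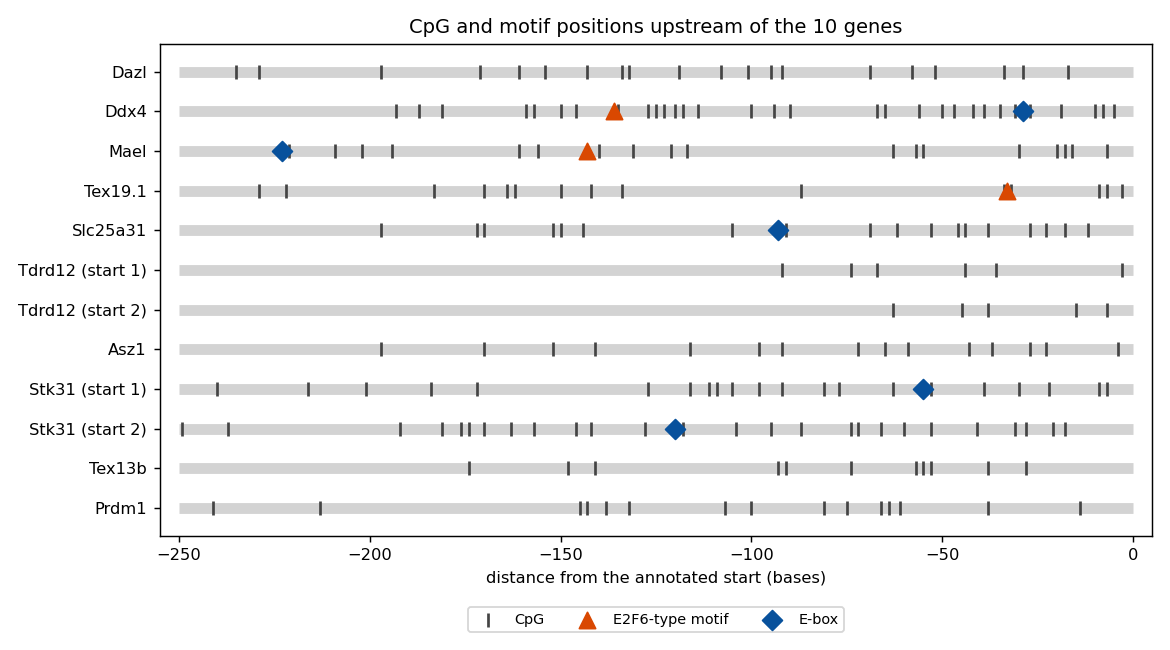
Position of CpGs (ticks), E2F6-type motifs (triangles) and E-boxes (diamonds) in the 250 bases before each annotated start of the 10 genes; the horizontal axis is the distance from the start in bases. Tdrd12 has the fewest CpGs, 6 and 5 at its 2 starts, and Ddx4 the most, with 31.

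The comparison of J1 cells asked which of these genes had changed 48 h after transfection. Dazl, Slc25a31, Mael and Tex19.1 rose, by between 1.45-fold and 2.50-fold, as did 1 of 2 Stk31 probe sets, and none of the 10 genes passed as lower. In F1 cells at passage 16, Dazl, Slc25a31, Mael and Tex19.1 rose, by between 1.42-fold and 4.18-fold, and Tdrd12 and Prdm1 fell. Tex13b was 11.1-fold and 10.6-fold higher in F1, where it passed the filter on dim values through the knockdown arrays alone, and the 2 Asz1 probe sets disagreed. Ddx4 passed in neither setting. Fold changes are differences of means of log2(signal + 18) after quantile normalization, an offset that shrinks the change of dim genes, and the test was limma with Benjamini-Hochberg adjustment over 31605 probe sets at 0.05.

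All 14 probe sets passed the filter on dim values and were tested. The genes were chosen with earlier results of these data known, so the shares given beside their counts are a description and no test. In J1, 6 of 14 were called higher and 0 lower, against 1.44% of all probe sets called higher and 1.74% called lower (3.18% in either direction). At an unadjusted p under 0.05, 7 were higher and 1 lower. In F1, 8 were called higher and 2 lower, against 8.26% and 6.78% of all (15% in either direction). A change of at least 2-fold was called for 3 member probe sets in J1, all higher (both of Dazl and that of Slc25a31). There 0.104% of all probe sets were at least 2-fold higher and 0.0285% lower. In F1 it was called for 5 higher and 1 lower, where the shares were 1.28% and 0.193%. The 5 were both Dazl probe sets, the Slc25a31 probe set and both Tex13b probe sets. The Tex13b pair was tested only because its F1 knockdown arrays were bright. The median log2 fold change of the member probe sets was 0.25 in J1 and 0.54 in F1, and that of all probe sets was -0.001 and -0.03. Both Tex13b probe sets passed the filter through the 2 F1 knockdown arrays alone, and Asz1 1424939_at through 1 knockdown array of each setting alone, so the filter favoured a difference at these 3. Among the other 11 probe sets, 6 were higher and 0 lower in J1, and 5 were higher and 2 lower in F1, with medians of 0.54 and 0.22. On the normalized scale the arrays of the groups did not overlap for 10 of 14 probe sets in J1 (8 higher, 2 lower) and 12 of 14 in F1 (10 higher, 2 lower). Over all probe sets, 18.8% were higher and 20.9% lower without overlap in J1, and 28.4% and 35.5% in F1. Called higher in both settings were 5 of the 14, for 4 genes, against 0.592% of all probe sets, and 0 were called lower in both, against 0.332%. The calls of these 4 genes passed in all 21 alternatives tried in each setting, including the fit with only the 4 arrays of the setting.

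**Figure D2:**
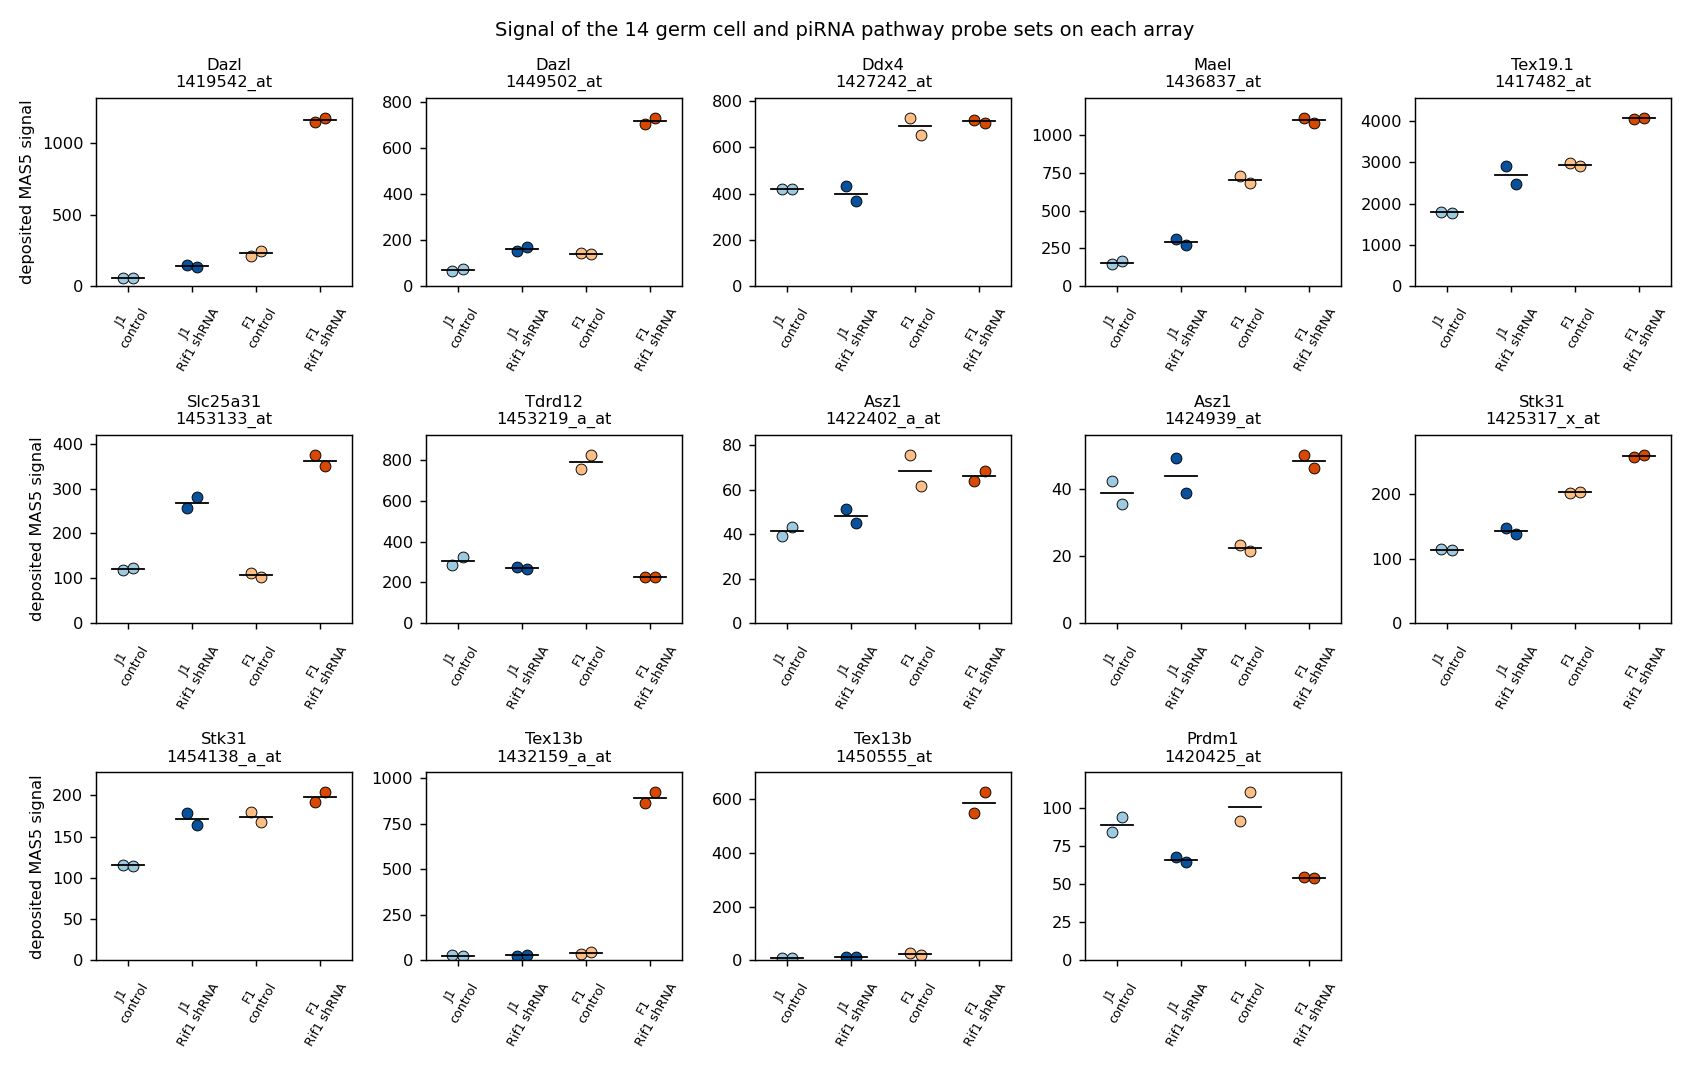
Deposited MAS5 signal (vertical axis, linear and starting at 0, scaled separately in each panel) of each of the 14 probe sets on the 8 arrays; points are arrays and lines are group means of 2 arrays. Both Dazl probe sets stand highest on the F1 Rif1 shRNA arrays, at 704 to 1177, and Tdrd12 is highest on the F1 control arrays, at 754 and 822.

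Dazl encodes an RNA-binding protein that controls translation in germ cells. Its first probe set (1419542_at) read 54.2 and 57.4 in J1 controls, 151 and 135 in J1 Rif1 shRNA arrays, 211 and 248 in F1 controls and 1153 and 1177 in F1 Rif1 shRNA arrays. The F1 Rif1 shRNA arrays were by far the highest, and the groups did not overlap in either setting. Dazl rose by 1.32 on the log2 scale in J1 (SE 0.12, adjusted p = 0.000337) and 2.06 in F1 (SE 0.12, adjusted p = 1.17e-06), the 16th and 40th largest rises among all probe sets. The second probe set (1449502_at) read 65.0 and 75.7, 154 and 171, 142 and 138, and 704 and 728 in the same order of groups. It rose by a log2 fold change of 1.24 in J1 (adjusted p = 0.000483) and 1.94 in F1 (adjusted p = 1.89e-06). Both probe sets thus gave the same order within each setting. The rise was larger in F1 than in J1 by 0.74 (adjusted p = 0.0196) and 0.70 (adjusted p = 0.0254), but 6 of 20 alternatives for the first and 7 of 20 for the second did not pass, with adjusted p up to 0.0878 and 0.112. These were the fits with no offset, with a replicate block, without J1 control replicate 2 (0.0804 and 0.0683), without F1 control replicate 1 (0.0878 and 0.0785), without F1 Rif1 shRNA replicate 1 (0.0743 and 0.0957) or 2 (0.0850 and 0.112) and, for the second probe set, without F1 control replicate 2 (0.0962).

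Slc25a31 encodes the ADP/ATP carrier of the mitochondrial inner membrane used in male germ cells. It read 118 and 124 in J1 controls, 256 and 282 in J1 Rif1 shRNA arrays, 111 and 103 in F1 controls and 374 and 350 in F1 Rif1 shRNA arrays. Every knockdown array was above every control array. On the log2 scale the rise was 1.20 in J1 (SE 0.10, adjusted p = 0.000277) and 1.32 in F1 (SE 0.10, adjusted p = 1.08e-05). The difference between settings was 0.13 (95% interval -0.19 to 0.45, adjusted p = 0.675), and it passed at 0.56 with the deposited scale (adjusted p = 0.0181), 0.59 with median scaling (0.0227) and 0.53 with normalization within each setting (0.0298).

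Mael encodes Maelstrom, a nuage protein needed for piRNA silencing of transposons. It read 145 and 165 in J1 controls, 312 and 271 in J1 Rif1 shRNA arrays, 728 and 683 in F1 controls and 1114 and 1082 in F1 Rif1 shRNA arrays. The groups did not overlap in either setting. Its log2 fold change was 0.94 in J1 (SE 0.10, adjusted p = 0.00127) and 0.57 in F1 (SE 0.10, adjusted p = 0.00325). The difference of -0.37 between settings did not pass (95% interval -0.69 to -0.04, adjusted p = 0.165).

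Tex19.1 acts in transposon control in germ cells and placenta. It read 1797 and 1778 in J1 controls, 2918 and 2481 in J1 Rif1 shRNA arrays, 2990 and 2896 in F1 controls and 4050 and 4067 in F1 Rif1 shRNA arrays. All knockdown arrays were above the controls of their setting. The log2 fold change was 0.54 in J1 (SE 0.06, adjusted p = 0.00189) and 0.51 in F1 (SE 0.06, adjusted p = 0.000328), and the difference was -0.03 (95% interval -0.23 to 0.17, adjusted p = 0.874). Its relative Tex19.2 rose in J1 by 0.59 (adjusted p = 0.0175), a call lost when J1 was fitted alone (adjusted p = 0.126) and without J1 control replicate 1 (0.0780) or 2 (0.0787), and had 0.13 in F1 (adjusted p = 0.535).

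Tex13b, an X-linked gene named for its expression in testis, lay at or below percentile 35.8 of the array in 3 of the 4 groups. Its first probe set (1432159_a_at) read 28.6 and 25.2 in J1 controls, 25.9 and 27.9 in J1 Rif1 shRNA arrays, 37.7 and 44.8 in F1 controls and 861 and 921 in F1 Rif1 shRNA arrays. The second (1450555_at) read 7.77 and 9.48, 13.6 and 11.8, 26.7 and 19.6, and 550 and 626. The F1 knockdown arrays stood apart from all 6 others at both. The log2 fold change in F1 was 3.47 and 3.40, ranks 3 and 4 among the rises of all probe sets, and over the alternatives it ran from 2.67 to 3.94 and from 2.40 to 4.13. Since both probe sets were tested only because these F1 knockdown arrays were bright, the values are a description and no p is given. In J1 the values were -0.01 (adjusted p = 0.966) and 0.18 (adjusted p = 0.483).

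Tdrd12, a Tudor-domain helicase-like protein needed for secondary piRNAs, moved the other way. It read 284 and 322 in J1 controls, 273 and 264 in J1 Rif1 shRNA arrays, 754 and 822 in F1 controls and 227 and 226 in F1 Rif1 shRNA arrays. The F1 knockdown arrays were the lowest of all 8. The log2 fold change in F1 was -1.62 (SE 0.09, adjusted p = 8.69e-07), or 32.5% of the control level, and was the 12th largest fall among all probe sets. In J1 it was -0.17 (95% interval -0.36 to 0.03, adjusted p = 0.372), and the F1 effect was lower than the J1 effect by -1.45 (adjusted p = 7.36e-05), a difference that passed in all 20 alternatives.

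Ddx4, the germ cell RNA helicase also called Vasa, read 422 and 418 in J1 controls, 431 and 368 in J1 Rif1 shRNA arrays, 726 and 655 in F1 controls and 719 and 705 in F1 Rif1 shRNA arrays. The groups overlapped in both settings. The log2 fold change was -0.06 in J1 (95% interval -0.26 to 0.14, adjusted p = 0.799) and 0.01 in F1 (95% interval -0.19 to 0.21, adjusted p = 0.960). Ddx4 was among the brighter members, at percentiles 86.5 to 87.0 of the array in all 4 groups.

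Prdm1 encodes the repressor Blimp1, which specifies primordial germ cells. It read 84.2 and 94.3 in J1 controls, 67.8 and 64.6 in J1 Rif1 shRNA arrays, 91.4 and 110 in F1 controls and 54.6 and 53.9 in F1 Rif1 shRNA arrays. Knockdown arrays were below controls in both settings. It fell in F1, with a log2 fold change of -0.62 (SE 0.13, adjusted p = 0.00813) and -0.47 in J1 (SE 0.13), where it did not pass (adjusted p = 0.0879). The F1 fall did not pass without F1 control replicate 2 (adjusted p = 0.101) or without F1 Rif1 shRNA replicate 1 (0.0677) or 2 (0.0653).

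Stk31, a kinase-like protein with a Tudor domain, was measured at a pair of probe sets that differed in their calls. The first (1454138_a_at) read 116 and 115 in J1 controls, 179 and 164 in J1 Rif1 shRNA arrays, 180 and 167 in F1 controls and 192 and 204 in F1 Rif1 shRNA arrays. It rose in J1 by a log2 fold change of 0.58 (SE 0.11, adjusted p = 0.0171) and had 0.09 in F1 (adjusted p = 0.663). The J1 call was lost in 6 of 21 alternatives, including the fit with only the 4 J1 arrays (adjusted p = 0.114) and the fits without J1 control replicate 1 (0.0839) or 2 (0.0737). The second (1425317_x_at), whose suffix marks probes that may match other transcripts, had 0.31 in J1 (adjusted p = 0.139) and 0.22 in F1 (adjusted p = 0.193). Its F1 value passed with only the 4 F1 arrays (adjusted p = 0.0379), with a variance for each setting (0.0358) and on the deposited scale (0.0210). Both probe sets were higher on every knockdown array than on the controls of the same setting.

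Asz1 encodes GASZ, which tethers nuage to mitochondria, and was dim. Its first probe set (1422402_a_at) read 39.2 and 43.3, 51.1 and 45.1, 75.5 and 61.5, and 63.9 and 68.4 on the arrays of the groups in the order used above, and passed in neither setting (adjusted p = 0.633 and 0.878). The second (1424939_at) read 42.3 and 35.4, 49.1 and 38.9, 23.3 and 21.5, and 50.0 and 46.3. It had a log2 fold change of 0.66 in F1 and 0.11 in J1. This second probe set passed the filter on dim values through 1 Rif1 shRNA array of each setting alone. Its values are therefore a description and no p is given. The pair disagreed and neither exceeded percentile 50.7 in any group, so the change of Asz1 is uncertain.

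**Figure D3:**
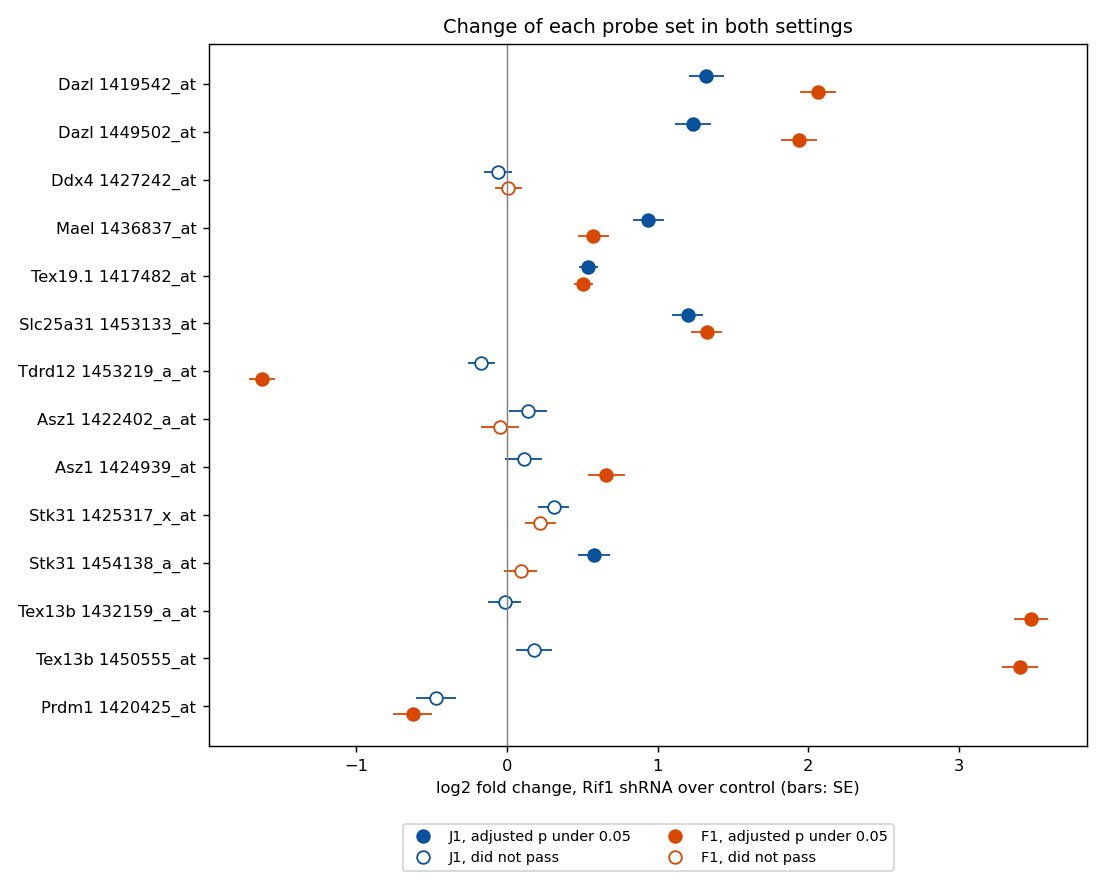
Log2 fold change of Rif1 shRNA over control (horizontal axis, bars are the SE of the fit) for each of the 14 probe sets in J1 (blue) and F1 (orange); filled points passed an adjusted p of 0.05. Dazl, Mael, Tex19.1 and Slc25a31 are filled on the right in both settings. Tex13b, at 3.47 and 3.40, and Tdrd12, at -1.62, stand out in F1 alone. The Tex13b pair and Asz1 1424939_at passed the filter on dim values through knockdown arrays alone. Their filled points in F1 are therefore a description and no test.

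Whether the effect differed between settings was tested directly. Of the 14 probe sets, 4 had a higher effect in F1 (the Dazl and Tex13b pairs) and 1 a lower effect (Tdrd12), where 4.98% and 3.35% of all probe sets did (8.33% in either direction). Without the 3 probe sets that passed the filter through knockdown arrays alone, 2 of 11 were higher and 1 lower. The Tdrd12 difference passed in all 20 alternatives, and the Dazl differences did not, as given above.

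The controls of the lines differed, as did most of the array: 67.5% of all probe sets passed between F1 and J1 controls, against 10 of 14 member probe sets (71.4%). Given the Eif2s3y and Uty values above, the F1 controls need not show the level of the F1 knockdown cells before knockdown. Of the member probe sets 57.1% were higher and 14.3% lower, against 33.5% and 34% of all probe sets. The number of member probe sets called ran from 8 to 12 over the alternatives. Dazl (log2 difference 1.50 and 0.65), Mael (1.42) and Tdrd12 (0.58) were higher in F1 controls under every scaling tried. Slc25a31 was lower by 0.45 (adjusted p = 0.00253), a call lost on the deposited scale (adjusted p = 0.147), with median scaling (0.116) and with normalization within each setting (0.161). For Ddx4 and Tex19.1 the direction itself turned with the scaling, from -0.07 and -0.01 to 0.69 (adjusted p = 2.26e-05) and 0.71 (adjusted p = 2.93e-06) on the deposited scale, where Stk31 1454138_a_at also passed (0.52, adjusted p = 0.000342) and the median of all probe sets moved from -0.02 to 0.30. On the deposited scale the order of the 4 group means was the same for both Dazl probe sets only at its ends: J1 controls were lowest and F1 knockdown arrays highest, while J1 Rif1 shRNA and F1 controls changed places between the pair.

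The genes with the most similar pattern over the 8 arrays were sought among 5992 probe sets with group means spanning at least 1 log2 unit (5993 for Tdrd12). For Dazl these were BC080696 (Pearson r = 0.998), Guca1a (0.995) and 3110040M04Rik (0.993). For Tex13b they were Zfp503 (0.997), Timp3 (0.996) and Efemp1 (0.996), which had log2 fold changes of 1.10, 1.37 and 0.97 in F1 and of 0.02, -0.11 and -0.06 in J1. For Tdrd12 they were Lncenc1 (0.990), Ptch1 (0.986) and Zfp229 (0.982), with -1.12, -1.45 and -1.72 in F1. The 8 arrays fall into 4 groups, so these correlations describe shared group differences.

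Of 16 further genes of the piRNA pathway tested, 1 was higher and 0 lower in J1, and 2 were higher and 5 lower in F1. Their median log2 fold changes were 0.06 and -0.07. Over all probe sets 1.44% were higher and 1.74% lower in J1, and 8.26% and 6.78% in F1. List genes were taken at their brightest probe set, so the shares beside list counts are a description and no test. Morc1, an ATPase needed for transposon silencing in male germ cells, had 704 against 548 in J1 and 675 against 1279 in F1 (means of knockdown against control, n = 2). It rose by 0.37 in J1 (adjusted p = 0.0160) and fell by 0.93 in F1 (adjusted p = 7.21e-06), and its J1 rise was lost in 6 alternatives, among them the fits without J1 control replicate 1 (adjusted p = 0.0818) or 2 (0.0767), with adjusted p up to 0.147. Tdrkh, a mitochondrial Tudor protein that binds PIWI proteins, rose in F1 (log2 fold change 0.87, adjusted p = 0.000133). The PIWI gene Piwil4 fell there (-0.85, adjusted p = 0.000345), from 72.6 to 29.4.

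Of 21 germ cell regulators, 1 was higher and 2 lower in J1, and 3 were higher and 7 lower in F1. The shares of all probe sets were 1.44% and 1.74% in J1, and 8.26% and 6.78% in F1. Sohlh2, a transcription factor of early germ cell differentiation, rose in both settings, by 0.61 in J1 (adjusted p = 0.00276) and 0.57 in F1 (adjusted p = 0.000485). Tfap2c, which acts downstream of Prdm1 in primordial germ cells, fell in both, by 0.58 (adjusted p = 0.00546) and 0.85 (adjusted p = 5.20e-05) on the log2 scale. Dazap1, which encodes a protein that binds Dazl, fell by 0.39 in F1 (adjusted p = 0.00163) and by 0.28 in J1 (adjusted p = 0.0381), where the call was lost in 11 alternatives (adjusted p up to 0.159), and Dmrt1 fell by 0.70 in F1 (adjusted p = 0.000154).

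The third list held 21 tested germline genes known for methylated or PRC1.6-bound promoters. In J1, 4 were higher and 0 lower (median log2 fold change 0.20), and in F1, 4 were higher and 6 lower (median -0.11). Among all probe sets these shares were 1.44% and 1.74% in J1, and 8.26% and 6.78% in F1. In J1 the synaptonemal complex genes Sycp1 (0.78, adjusted p = 0.00768) and Sycp3 (0.45, adjusted p = 0.0220) rose. In F1 Sycp1 rose too (0.56, adjusted p = 0.00904), while Sycp3 fell (-0.87, adjusted p = 6.14e-05), with a difference between settings of -1.32 (adjusted p = 0.000119). Without J1 control replicate 1 the Sycp1 rise had an adjusted p of 0.0527. The Sycp3 rise was lost in 7 alternatives, among them the fits without J1 control replicate 2 (adjusted p = 0.149) or J1 Rif1 shRNA replicate 2 (0.0698). In F1, Syce1, which encodes another synaptonemal complex protein, rose (1.87, adjusted p = 8.69e-07), and the meiotic genes Hsf2bp (-1.90, adjusted p = 2.98e-07) and Hormad1 (-1.71, adjusted p = 1.69e-06) fell. The effect differed between settings for 8 of the 21, being higher in F1 for 2 and lower for 6, against 4.98% and 3.35% of all probe sets.

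**Figure D4:**
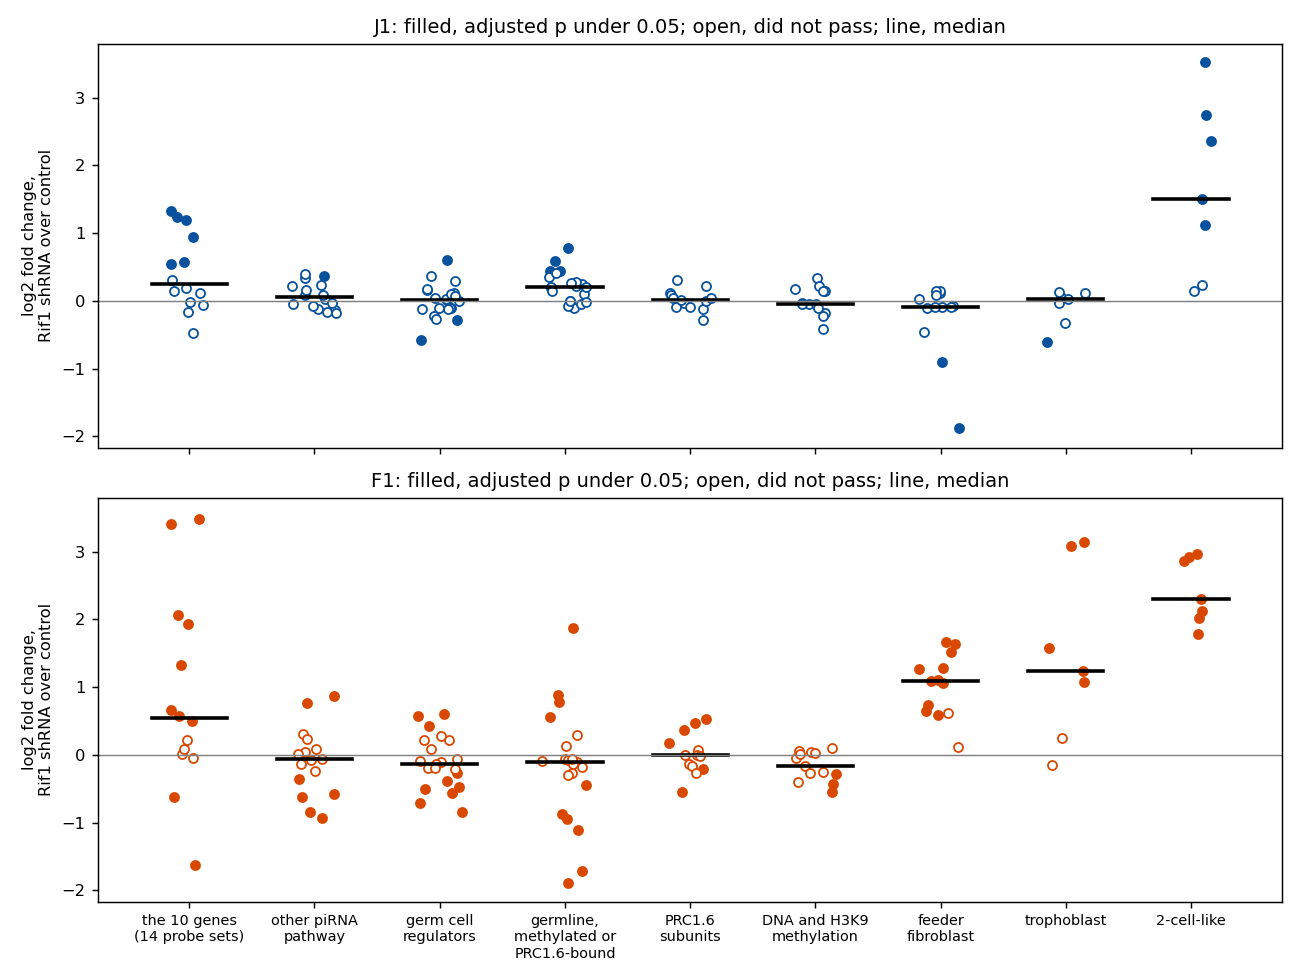
Log2 fold change of Rif1 shRNA over control (vertical axis) in J1 (upper) and F1 (lower) for the 14 probe sets of the 10 genes and for each gene of 8 lists at its brightest probe set; filled points passed, lines are medians. The median of the 10 genes' probe sets is 0.25 in J1 and 0.54 in F1, while those of the other piRNA pathway genes are 0.06 and -0.07. The Tex13b pair and Asz1 1424939_at passed the filter on dim values through knockdown arrays alone. Over the other 11 probe sets the median is 0.54 in J1 and 0.22 in F1.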

How the data were processed

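Total RNA was hybridised to Affymetrix mouse genome arrays. The deposited values are intensity signals on a linear scale, 1 per probe set and array, made with MAS5 per the submitters' processing notes; the sources used here give no version, and no detection calls were used. The table held 45101 probe sets, and 64 control probe sets were left out. Deposited signals differed in scale between settings (2% trimmed means of 193 to 197 in J1 and 301 to 309 in F1), so log2(signal + 18) was quantile normalized over the 8 arrays, 18 being the 10th percentile of all values. A probe set was tested if it exceeded its array's 40th percentile on 2 or more arrays (31605).

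The 4 groups were fitted together in limma 3.58.1 under R 4.3.3 (intensity trend, 4 residual degrees of freedom), two-sided, at a Benjamini-Hochberg adjusted p of 0.05. Both settings share 1 spread in this fit, although the median residual SD was 0.115 in J1 and 0.0657 in F1, so J1 calls are lenient; fits with only the 4 arrays of a setting and with a variance for each setting were alternatives. Intervals are 95% intervals of the fit. The fit was tested on simulated data. Replicates of a group correlated at 0.991 to 0.997. Deviations of same-numbered arrays correlated at -0.34 in J1 and 0.19 in F1. These values do not settle whether arrays were paired, and the main fit used no pairing. Symbols came from the platform annotation; 14 probe sets named 1 of the 10 genes alone and 0 probe sets with several symbols included one.

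Every member probe set is named, with Rif1 and, from each list, up to 3 genes with the smallest p among those past the threshold in each setting, taken at their brightest probe set, and the 3 genes most like Dazl, Tex13b and Tdrd12. Eif2s3y, Uty, Kdm5d, Usp9y, Xist, the F1 and J1 values given beside a named gene, and the marker examples were picked with their values known. The members and all lists were chosen with earlier results of these data known. Alternatives were other offsets, scalings, filters, spreads, a replicate block and each array left out in turn, with the same probe sets tested as in the full fit. Figures were drawn with matplotlib 3.10.9.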

Additional observations from a re-analysis of the deposited data

Results flagged for a closer look

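The test of the difference between the F1 and the J1 effect passed for 5 of the 14 probe sets. The Dazl pair had a larger rise in F1, by 0.74 (adjusted p = 0.0196) and 0.70 (adjusted p = 0.0254) on the log2 scale. The Tex13b pair differed by 3.49 and 3.22, but both probe sets were tested only because their F1 knockdown arrays were bright, so these are descriptions. Tdrd12 had a lower effect in F1, by -1.45 (adjusted p = 7.36e-05). All 5 rest on 2 arrays a group.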

How the results depend on the processing

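The J1 count of 6 probe sets was 5 to 7 and the F1 count of 10 was 9 to 11 over the alternatives. The count of 5 for the difference was 3 with no offset and 3 with the replicate block, which also lost the J1 calls of Stk31 (adjusted p = 0.0767), Dazap1 (0.0708), Tex19.2 (0.0758) and Sycp3 (0.0565). Leaving out 1 array gave 5 to 6 in J1, 9 to 10 in F1, 3 to 6 for the difference (3 without J1 control 2, F1 control 1 or either F1 Rif1 shRNA array) and 8 to 10 between controls. A block with crossed J1 numbers, added after the data were seen, gave 7 calls in J1, 10 in F1 and 7 for the difference. No member past the threshold turned its direction in these alternatives.

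Uncalled values near 0 changed sign; the cause was not tested. With the 3 other scalings Ddx4 and Tex19.1 then passed between controls, and the count of 10 there was 8 to 12 over the alternatives. On the deposited scale, with median scaling and normalized within settings, the control difference was 0.69, 0.66 and 0.72 for Ddx4, 0.71, 0.68 and 0.72 for Tex19.1 and 0.15, 0.11 and 0.14 for Prdm1, and the Stk31 1425317_x_at difference between settings was 0.035, 0.058 and 0.010. Tex13b 1432159_a_at in J1 had 0.0020 on the deposited scale. With single arrays left out, J1 values ran from -0.17 to 0.057 (Ddx4), -0.058 to 0.28 (Asz1 1424939_at), -0.043 to 0.014 (Tex13b 1432159_a_at) and -0.0088 to 0.055 (Zfp503). F1 values ran from -0.066 to 0.087 (Ddx4) and -0.14 to 0.052 (Asz1 1422402_a_at). Differences between settings ran from -0.045 to 0.18 (Ddx4), -0.13 to 0.067 (Tex19.1) and -0.20 to 0.011 (Stk31 1425317_x_at), and between controls from -0.14 to 0.0088 (Ddx4), -0.029 to 0.0094 (Tex19.1) and -0.20 to 0.099 (Prdm1).

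Over all probe sets, the J1 count of 1005 was 494 with median scaling, 231 with a variance for each setting, 350 with no intensity trend, 470 with the replicate block, 1802 with the crossed block, 254 with only the 4 J1 arrays and 228 to 1776 with single arrays left out. The F1 count of 4753 was 8140 with only the 4 F1 arrays, 9043 with a variance for each setting and 2070 to 6188 with single arrays left out. The count of 2634 for the difference was 1705 with the replicate block and 1137 to 4002 with single arrays left out, and median scaling turned its split from 1574 higher and 1060 lower to 1951 and 794. Between controls the split of 10573 higher and 10755 lower became 16541 and 6349 on the deposited scale.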

Other observations

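Subunits of PRC1.6 did not pass in J1 (0 of 13 higher or lower with limma, against 1 higher and 1 lower at an unadjusted p under 0.05). In F1, 4 of 13 were higher and 2 lower, with a median log2 fold change of -0.004, against 8.26% and 6.78% of all probe sets. Mga, a DNA-binding subunit, fell by 0.55 on the log2 scale (adjusted p = 0.00127), while Yaf2 rose by 0.53 (adjusted p = 0.00137). E2f6 rose by 0.47 (adjusted p = 0.00164) at its brightest probe set, and the mean over all its probe sets did not pass (adjusted p = 0.119).

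Of 13 genes of DNA and histone H3K9 methylation, 0 passed in J1 with limma (3 higher and 3 lower at an unadjusted p under 0.05). In F1, 0 rose and 3 fell (0 and 7 unadjusted), with a median of -0.17, against 8.26% and 6.78% of all probe sets. Uhrf1, which brings Dnmt1 to newly replicated DNA, fell by 0.54 on the log2 scale (adjusted p = 0.000150), and Tet2, which oxidises methylated cytosine, fell by 0.43 (adjusted p = 0.00601), a call lost without F1 Rif1 shRNA replicate 2 (0.0670). The methyltransferase gene Dnmt3b fell by 0.28 (adjusted p = 0.0160), a call lost in 5 alternatives, among them the fits without F1 control replicate 1 (0.156) and F1 Rif1 shRNA replicate 1 (0.162) or 2 (0.0569).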
